A study of Mus musculus with 12 samples.

Results

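The genes described here lie together on the distal part of mouse chromosome 5, between 136.5 and 140.0 Mb of the mm9 assembly. They were taken by position, as genes with a non-control array probe in that stretch. This gave 107 genes with 150 probes, of 27398 gene names and 41174 probes on the array. The stretch itself was picked because probes there had differed between En2-/- and WT mice. The genotype differences below are therefore given as a description, with their errors and without p-values. The comparison of the 2 WT tissues did not use that choice and was tested.

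En2 encodes a homeobox transcription factor of the developing midbrain and hindbrain, and En2-/- mice carry the mutation in all of their cells. RNA came from the entire cerebellum and the entire hippocampus of WT and En2-/- littermates born to heterozygous parents, adults of 3 to 5 months and of both sexes. Each of the 4 groups had 3 arrays. The En2 mutation was made on a mixed 129Sv x C57BL/6 and outbred background and crossed at least 5 times into C57BL/6. WT and En2-/- mice shared that breeding history. Whether they carried the same alleles in the stretch was not tested. The paper's methods name 3 adult mice per genotype for the hippocampi and cerebella. They do not state whether the cerebellum and the hippocampus with the same replicate number came from 1 mouse. The errors are those of limma, which combines the spread between a probe's samples within the groups with that of all probes tested. They measure no other source of variation.

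En2 also lies on chromosome 5. Its probe starts at position 28498468, which is 108.0 Mb below the stretch. That probe lies outside the deleted part of the gene and so does not check the genotype labels. Its log2 difference between En2-/- and WT was 0.309 ± 0.292 (SE) in the cerebellum and -0.227 ± 0.311 in the hippocampus.

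An expression array holds short DNA probes in spots, which shine more brightly the more labelled transcript they have bound. Transcripts of the same gene can differ in the exons and ends they contain, so probes at different places in a gene can report different transcripts. Neighbouring genes on a chromosome can also serve quite different functions. The stretch holds zinc finger proteins with KRAB or SCAN domains, which bind DNA and mostly repress transcription. It also holds the paired immunoglobulin-like receptors of myeloid cells (inhibitory Pilra, activating Pilrb1 and Pilrb2), cytochrome P450 enzymes, the meiotic cohesin subunit Stag3, and genes of synapses, iron uptake and RNA processing.

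Probes of the same gene did not always give the same result, so the middle 30 bases of the 60-base probes on which the account turns are printed here in the order the array files give them. No base is marked, and all letters are in lower case. Each line gives the gene, the probe, its mm9 position and its strand. The Mospd3 pair gave like differences, whereas the probes of Tsc22d4, Zkscan1 and Zfp157 did not. The others are the only tested probes of their genes or, for Zfp68, the probe with the larger differences.
Mospd3 A_51_P492228, chr5:138038159-138038218, minus strand: gacctaaggcagccactgtgatgtttgcac
Mospd3 A_52_P62051, chr5:138041227-138041504, minus strand: cagcacctgccaaatacacggtattcgatg
AK037434 A_52_P1139509, chr5:138124178-138124237, minus strand: ttatttgactaacattgggttcgagatctt
Tsc22d4 A_52_P384392, chr5:138187434-138187493, plus strand: caaactttccaccgagatgcctcgcagagt
Tsc22d4 A_51_P284466, chr5:138200670-138200729, plus strand: caggccttgccggaagagaaacagctcggg
Tsc22d4 A_51_P215896, chr5:138209484-138209543, plus strand: aatggccatcaggccagagctactggtgag
Pilra A_52_P118521, chr5:138264800-138265232, minus strand: tcccaaagaaaaccccaaggataataacat
Cyp3a13 A_51_P114941, chr5:138335318-138335377, minus strand: ctgtgaaagttatcttctgtggaacataag
Zkscan1 A_52_P322364, chr5:138545324-138545383, plus strand: acatctgtcgttagtgctcaggctagttaa
Zkscan1 A_52_P137710, chr5:138547193-138547252, plus strand: agaagtcagagtagatttttatttcaacta
Zkscan1 A_51_P190572, chr5:138548790-138548849, plus strand: tcaacatgataagcctacatttatatagag
Stag3 A_51_P494822, chr5:138753402-138753461, plus strand: ttctttctgaagtgggtgctatatatagat
Zfp157 A_52_P273748, chr5:138899495-138899554, plus strand: agaatctaaataatagtgtcctgactcttt
Zfp157 A_52_P211037, chr5:138901478-138901537, plus strand: actatgtcctccaaatatcagactgcacaa
Zfp68 A_51_P512561, chr5:139047396-139047455, minus strand: ctgtgattggaaaacacttatccaaaggtc
Of the 150 probes, 74 lay on the plus and 76 on the minus strand. The coordinates of 19 probes spanned more than 61 bases, longer than the probe itself, among them Mospd3 A_52_P62051 and Pilra A_52_P118521.

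Across the 12 arrays, the share of spots well above background was 62.3% to 73.0%, and 110 to 331 spots per array carried an outlier flag. With 3 arrays per group, precision is limited by their number. The tissues matched their labels. All 7 cerebellar markers (such as Pcp2, Gabra6 and Cbln1) were called higher in WT cerebellum, and all 7 hippocampal markers (such as Neurod6, Prox1 and Wfs1) in WT hippocampus. Each slide held an array of every group, so the slide could be fitted as a block, but each group always sat at the same position on its slide, so position and group cannot be told apart.

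A level below is a log2 intensity after quantile normalization over the 12 arrays, and a difference is En2-/- minus WT on that scale. A probe was tested if at least 1 genotype had it well above background on every array, and was called at a limma adjusted p under 0.05, with the adjustment over all probes tested. In the cerebellum 112 probes of 80 of the genes were tested and 9 probes were called, beside a background of 0.558% of all 27430 probes tested. Of these, 4 were higher in En2-/- mice (background 0.237%) and 5 were lower (0.321%). In the hippocampus 109 probes of 78 genes were tested and 13 were called (background 2.12%), of which 6 were higher (0.904%) and 7 were lower (1.22%). In neither tissue were the other 38 probes tested, and 27 genes had no tested probe. Because the stretch was chosen for such differences, nothing is read from these counts.

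The calls fell on 14 probes of 11 genes. Genes called in both tissues were Mospd3, AK037434, Tsc22d4, Pilra, Cyp3a13, Stag3 and Zfp68, 7 in all, and the calls on Srrt, Zkscan1, Mblac1 and Zfp157 were in the hippocampus alone. Azgp1, which had been named with Pilra, Cyp3a13, Stag3 and Zfp68 as a leading gene of the stretch, was called in neither tissue. All 22 called differences had WT and En2-/- arrays that did not overlap (background 13.8% of cerebellar and 27.9% of hippocampal probes tested). That alone fixes the sign on all 3 slides, so the shared sign is no separate result. With the slide as a block, 6 of the 9 cerebellar and 8 of the 13 hippocampal calls were kept. The lost ones were Tsc22d4 A_51_P215896, Pilra and Zfp68 in the cerebellum, and Srrt, both Zkscan1 probes, Mblac1 and Zfp68 in the hippocampus. Over all the alternative settings in which a probe was tested, the rank product aside, both Mospd3 probes and AK037434 were called in every one in both tissues, and Pilra in every one in the hippocampus. In the cerebellum the Pilra call held in 3 of 14 settings, that of Tsc22d4 A_51_P215896 in 2 of 15, Stag3 in 6 of 13, Zfp68 in 7 of 15, Cyp3a13 in 12 of 15 and Tsc22d4 A_52_P384392 in 13 of 15. In the hippocampus the call held for Cyp3a13 in 6 of 14, Stag3 in 10 of 14, Mblac1 in 7 of 15, each of the Zkscan1 probes in 8 of 15, Srrt in 9 of 15, Zfp68 in 11 of 15, and Zfp157 and Tsc22d4 A_52_P384392 in 13 of 15. Leaving out single arrays also lowered the counts. The cerebellar count was 5 without En2-/- array 1, En2-/- array 3, WT array 1 or WT array 2. The hippocampal count was 6 without En2-/- array 2, and 5 without En2-/- array 3 or WT array 1.

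**Figure D1:**
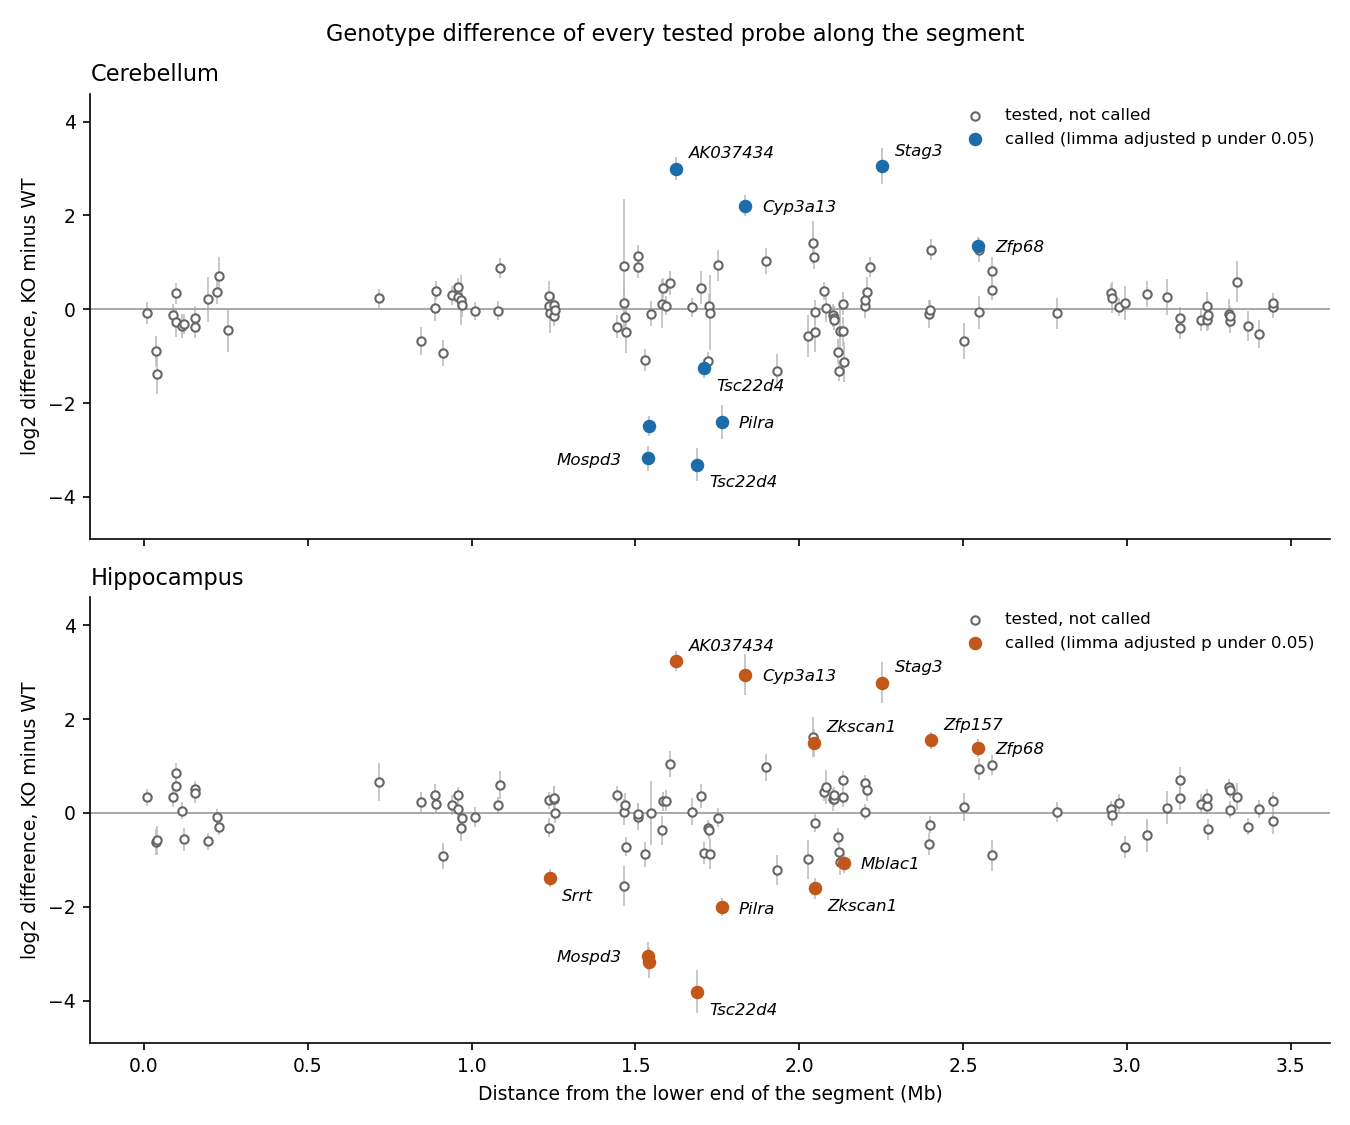
Log2 difference between En2-/- (KO) and WT for every tested probe against its distance in Mb from the lower end of the stretch, with the cerebellum above and the hippocampus below and called probes filled. Called probes lie from Srrt to Zfp68, and 13 of the 14 lie in the inner part, set by the cerebellar calls, that begins with Mospd3. Differences there go both up and down.

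Genotypes did not overlap for 37 of 112 probes in the cerebellum (background 13.8%) and for 47 of 109 in the hippocampus (background 27.9%). The rank product, a non-parametric statistic on ranked ratios that the study's methods use, called 26 probes in the cerebellum (background 4.53%) and 18 in the hippocampus (background 4.3%). It called all 9 and all 13 of the probes that limma called.

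Mospd3, which encodes a membrane protein of the endoplasmic reticulum with a motile sperm protein domain, was lower in En2-/- mice at both of its probes. At A_51_P492228 the WT cerebellum levels were 9.89, 9.32 and 9.74 and the En2-/- levels were 6.10, 6.69 and 6.63. In the hippocampus they were 10.45, 9.95 and 9.40 in WT and 7.15, 6.98 and 6.54 in En2-/- mice. Every En2-/- array stood far below every WT array of its tissue, with differences of -3.18 ± 0.26 (SE, n = 3 and 3), a 9.04-fold lower signal, in the cerebellum and -3.04 ± 0.30, 8.24-fold, in the hippocampus. At the dimmer probe A_52_P62051 the differences were -2.49 ± 0.21 in the cerebellum, where 2 of 3 En2-/- arrays were well above background, and -3.18 ± 0.33 in the hippocampus, where none was. The hippocampal signal there was at least 6.11-fold lower, a bound taken against the lowest signal that was well above background on those arrays.

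The next called probe belongs to AK037434, a cDNA for which the files give no symbol. Its WT levels were 5.02, 5.40 and 4.59 in the cerebellum, against 8.13, 7.97 and 7.92 in En2-/- mice. In the hippocampus WT levels were 6.04, 6.37 and 5.77, and En2-/- levels were 9.22, 9.53 and 9.16. All 12 arrays had the probe well above background, and the En2-/- signal was higher by 3.00 ± 0.25 on the log2 scale in the cerebellum (8.01-fold) and by 3.24 ± 0.21 in the hippocampus (9.45-fold). The within-slide differences ran from 2.57 to 3.33 and from 3.16 to 3.39.

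Tsc22d4, a leucine zipper protein that regulates transcription, has 3 probes, and they differed. The probe nearest the lower end, A_52_P384392, read 11.09, 11.52 and 11.09 in WT cerebellum and 8.34, 7.10 and 8.33 in En2-/- cerebellum. In the hippocampus it read 10.80, 9.40 and 11.14 in WT and 6.99, 6.87 and 6.05 in En2-/- mice. The En2-/- signal was thus far lower in both tissues, with differences of -3.31 ± 0.36 (9.91-fold) and -3.81 ± 0.46 (14.0-fold). The middle probe, A_51_P284466, was the brightest of the 3, with group means of 11.75 to 12.70, and its genotypes overlapped, with differences of 0.46 ± 0.35 and 0.36 ± 0.26. The probe farthest along, A_51_P215896, differed by -1.26 ± 0.20 in the cerebellum, where it was called, and by -0.85 ± 0.23 in the hippocampus, where it was not.

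Pilra, the inhibitory receptor of the pair found on myeloid cells, was measured by A_52_P118521. The WT cerebellum read 5.79, 6.26 and 6.11 and the En2-/- cerebellum 4.21, 2.81 and 3.93. The WT hippocampus read 6.32, 6.61 and 6.67 and the En2-/- hippocampus 4.72, 4.42 and 4.45. The probe was well above background on every WT array and on no En2-/- array, so its En2-/- signal has a bound, at least 4.50-fold lower in the cerebellum (difference -2.40 ± 0.37) and at least 3.42-fold lower in the hippocampus (-2.01 ± 0.19). The other Pilra probe, A_51_P310780, was not well above background on any array and was not tested. It read 4.10, 4.94 and 4.30 in WT hippocampus and 2.25, 2.24 and 2.08 in En2-/- hippocampus. In the cerebellum its genotypes overlapped, at 2.06, 2.71 and 2.39 in WT and 2.05, 2.07 and 2.06 in En2-/- mice. Microglia are the myeloid cells of the brain. The log2 of the summed signal of their 12 markers ran from 13.71 to 14.04 in WT and from 12.95 to 14.01 in En2-/- cerebellum. In the hippocampus it ran from 14.73 to 15.01 in WT and from 14.47 to 14.68 in En2-/- mice. None of the 12 was called by genotype in either tissue; at an unadjusted p under 0.05 limma had 0 in the cerebellum, where 8.22% of all probes tested had such a p, and 6 in the hippocampus, where 21.2% did. Their median difference in the hippocampus was -0.36. The part of microglia in the Pilra result was not tested. In whole tissue, fewer cells of a type and less RNA per cell cannot be told apart. No probe of Pilrb1 or Pilrb2 passed the filter on dim probes.

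Cyp3a13, a monooxygenase of drug and steroid metabolism, stood on the other side. Its WT cerebellum levels were 3.95, 4.41 and 4.14 and its En2-/- levels 6.34, 6.55 and 6.23, all well above background. WT hippocampus levels were 1.91, 3.45 and 2.74, none well above background, and En2-/- levels were 5.01, 5.80 and 6.15. The En2-/- signal was 4.63-fold higher in the cerebellum (difference 2.21 ± 0.22) and at least 2.33-fold higher in the hippocampus (2.95 ± 0.43). Cyp2w1, the other cytochrome P450 of the stretch, was tested in neither tissue.

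Stag3 is the cohesin subunit that holds sister chromatids together in meiosis, and its usual site is the germ line. Its levels were 3.06, 3.52 and 1.98 in WT cerebellum and 5.96, 6.05 and 5.69 in En2-/- cerebellum. They were 2.31, 4.07 and 3.67 in WT hippocampus and 5.79, 6.28 and 6.32 in En2-/- hippocampus. All En2-/- arrays were well above background, compared with 1 of 3 WT arrays in the cerebellum and 0 of 3 in the hippocampus. The bounds were at least 4.54-fold (difference 3.05 ± 0.38) and at least 3.25-fold (2.78 ± 0.43) higher in En2-/- mice.

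The size of these differences depended on how the background was handled, also for probes that were well above background on every array. The alternative corrections also added an offset of 50, so the correction and the offset cannot be told apart. With the local background modelled by normexp in place of the scanner software's own correction, Stag3 differed by 0.75 in the cerebellum and by 0.83 in the hippocampus, and Cyp3a13 by 0.85 and 0.72. Pilra differed by -0.68 and -0.89 and Mospd3 A_52_P62051 by -1.40 in the hippocampus. AK037434 differed by 1.71 and 2.41. Among the zinc finger genes, Zfp157 A_52_P211037 moved to 0.70 and 0.85 and Zkscan1 A_52_P137710 to -0.25 and -0.99. Mospd3 A_51_P492228 differed by -2.48 and -2.49 and Tsc22d4 A_52_P384392 by -3.04 and -3.09. The at-least folds given above therefore hold only with the scanner software's own correction. Under normexp, Stag3 and Pilra in both tissues fell short of them, as did Cyp3a13 and Mospd3 A_52_P62051 in the hippocampus. None of the 22 called differences changed direction under any setting run.

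**Figure D2:**
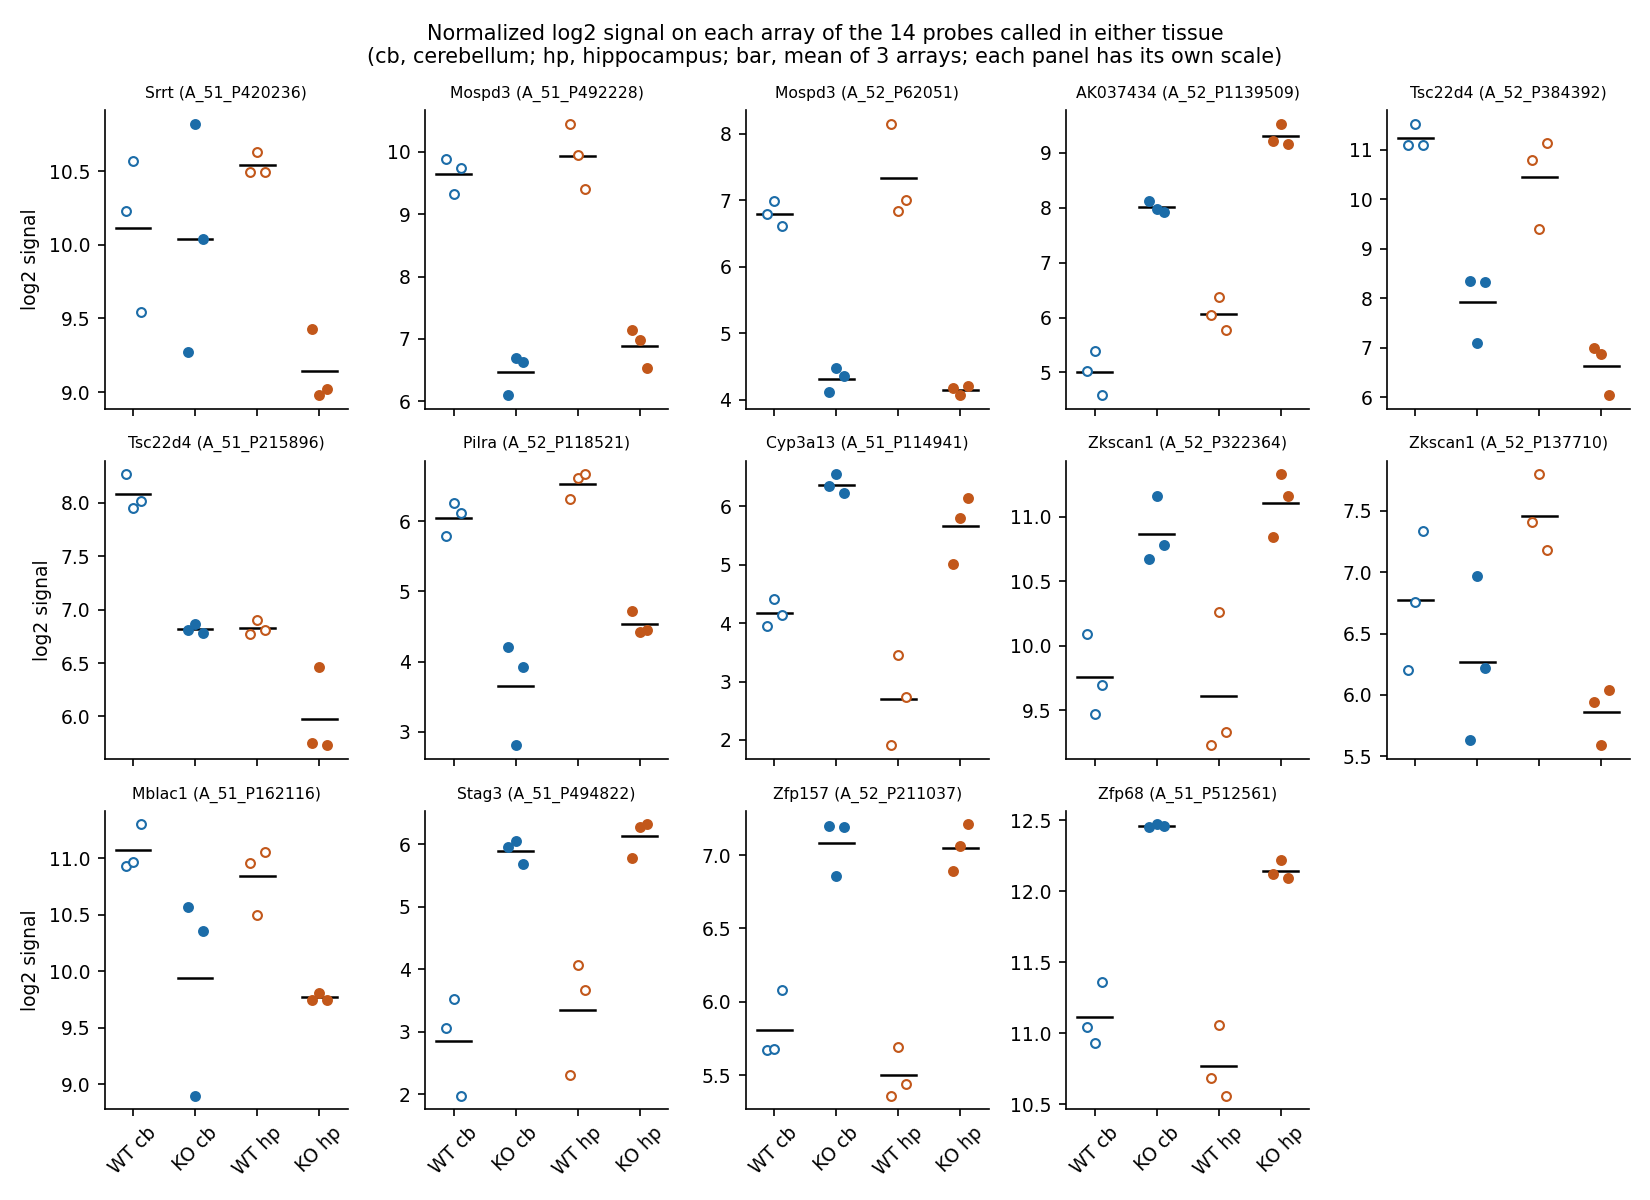
Normalized log2 signal on each of the 12 arrays for the 14 probes called in either tissue, by group (cb, cerebellum; hp, hippocampus; bar, mean of 3 arrays; each panel has its own scale). For Mospd3, Pilra and AK037434 the WT and KO points are apart in both tissues, while the Srrt points are apart in the hippocampus and mixed in the cerebellum.

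A list of zinc finger genes, which left out Znhit1 and Zfand2a, held Zcwpw1, Zfp113, Zfp157, Zfp68, Zkscan1 and Zscan21. It had 13 tested probes in each tissue, 5 of them of Zkscan1. In the cerebellum 1 was called, higher in En2-/- mice (background 0.237%). In the hippocampus 3 were called higher (background 0.904%) and 1 lower (background 1.22%). At an unadjusted limma p under 0.05 there were 6 and 9 of the 13 (background 8.22% and 21.2%). The rank product called 6 and 5 (background 4.53% and 4.3%). The median difference of the 13 was 0.39 and 0.45, beside medians of 0.00 and 0.02 over all probes tested. Zfp68 probe A_51_P512561 was among the brightest, at 11.04, 10.93 and 11.36 in WT cerebellum and 12.45, 12.47 and 12.46 in En2-/- cerebellum. In the hippocampus it read 10.68, 11.06 and 10.56 in WT and 12.12, 12.22 and 12.09 in En2-/- mice. The difference was 1.35 ± 0.20 (2.55-fold) and 1.38 ± 0.19 (2.60-fold), and the second probe, A_52_P423978, was not called but had differences of 1.27 ± 0.26 and 0.94 ± 0.23.

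Zkscan1 was the gene with the most probes, 5 of them tested in both tissues, and their signs were mixed. A_52_P322364 read 9.23, 10.26 and 9.33 in WT hippocampus and 10.84, 11.33 and 11.16 in En2-/- hippocampus, a difference of 1.50 ± 0.30. A_52_P137710, which starts less than 2 kb farther along, read 7.41, 7.80 and 7.18 in WT and 5.94, 5.59 and 6.04 in En2-/- hippocampus, a difference of -1.61 ± 0.22. Both were called there, in opposite directions. In the cerebellum their differences were 1.11 ± 0.25 and -0.49 ± 0.41, and neither was called. The brightest Zkscan1 probe, A_51_P190572, differed by -0.06 ± 0.26 in the cerebellum and by -0.21 ± 0.19 in the hippocampus. The probes A_52_P440723 (1.42 ± 0.46 and 1.62 ± 0.43) and A_51_P487658 (-0.57 ± 0.45 and -0.99 ± 0.42) were not called.

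Zfp157 was similar in having probes that disagreed. At A_52_P211037 the hippocampus read 5.36, 5.69 and 5.44 in WT and 6.89, 7.06 and 7.21 in En2-/- mice, a difference of 1.55 ± 0.18 (2.94-fold), and the cerebellar difference was 1.27 ± 0.22 without a call. The brighter probes A_51_P439156 and A_52_P273748 differed by -0.10 ± 0.30 and -0.02 ± 0.21 in the cerebellum and by -0.66 ± 0.24 and -0.25 ± 0.18 in the hippocampus, and none of these was called.

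In each tissue 24 genes had more than 1 tested probe. The probes of 5 genes in the cerebellum (Cux1, Gigyf1, Tsc22d4, Zfp157 and Zkscan1) and of 4 in the hippocampus (the same without Cux1) lay over 1 apart on the log2 scale, and the median range over the 24 genes was 0.22 and 0.33. Gigyf1 owed its range to the dim and variable probe A_51_P375926, which read 6.99, 5.98 and 1.92 in WT cerebellum and differed by -1.56 ± 0.43 in the hippocampus without a call, and its other probes lay between -0.17 and 0.16. The Cux1 probes, none of them called by genotype, ran from -0.45 to 0.70 in the cerebellum.

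**Figure D3:**
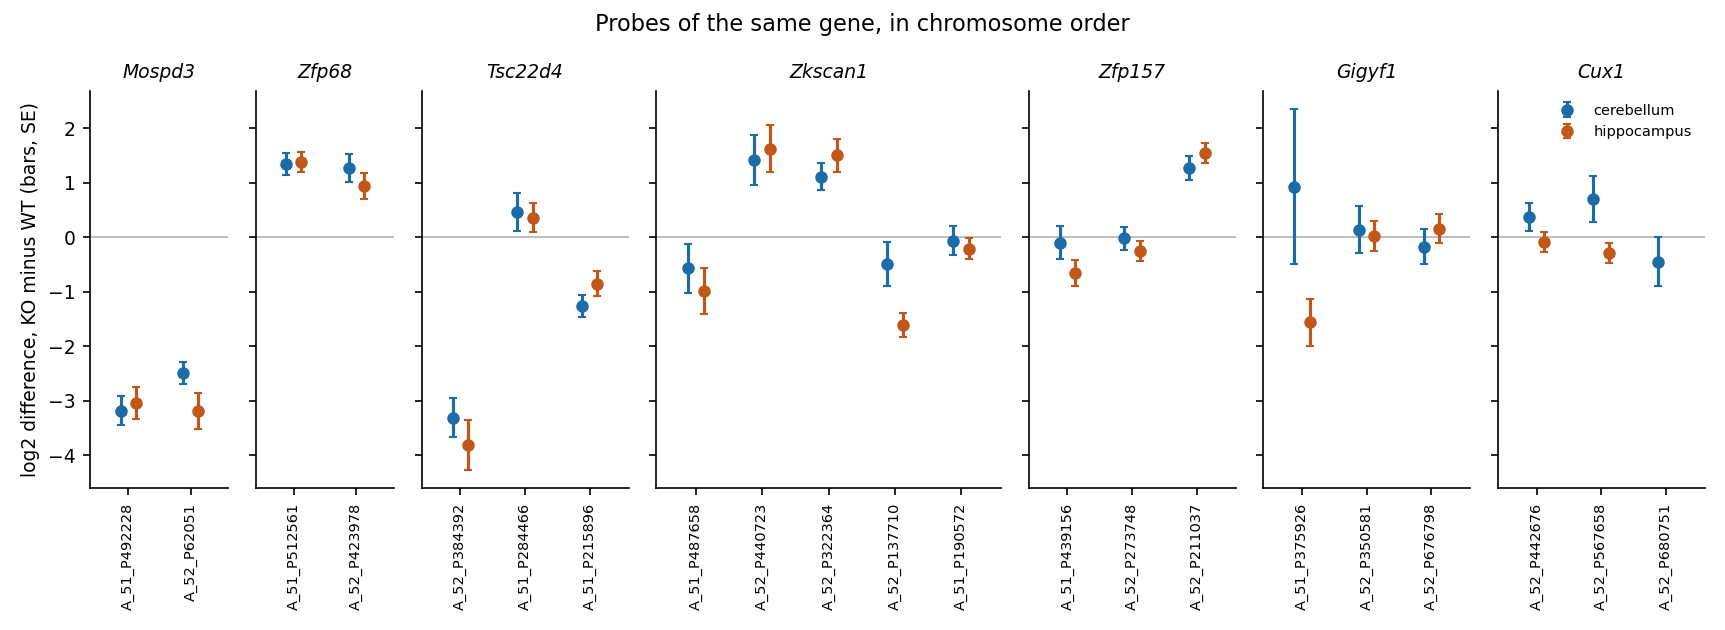
Log2 difference between KO and WT (bars, SE) for each tested probe of genes with several probes, in chromosome order, in both tissues. Tsc22d4 runs from -3.81 at one probe to 0.46 at another, and Zkscan1 has probes on both sides of 0.

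Several genes showed smaller differences. Srrt, a protein of nuclear RNA processing, was at 10.49, 10.63 and 10.49 in WT hippocampus and 9.43, 8.98 and 9.02 in En2-/- hippocampus, a difference of -1.39 ± 0.19. In the cerebellum its genotypes overlapped and the difference was -0.07 ± 0.43. Mblac1, which has a metallo-beta-lactamase domain, was at 10.96, 10.50 and 11.06 in WT and 9.75, 9.81 and 9.75 in En2-/- hippocampus (-1.07 ± 0.20). Its cerebellar difference was alike in size but more variable, -1.13 ± 0.43, and was not called.

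Azgp1, which encodes the secreted zinc-alpha-2-glycoprotein, read 9.73, 9.33 and 8.71 in WT and 7.70, 8.52 and 7.64 in En2-/- cerebellum. It read 8.97, 9.98 and 8.85 in WT and 8.01, 7.81 and 8.36 in En2-/- hippocampus. The genotypes did not overlap in either tissue (background 13.8% and 27.9%), and the differences of -1.31 ± 0.35 and -1.21 ± 0.32 were not called. The rank product called Azgp1 in both. Upk3bl probe A_51_P345340, near the lower end, was also among the largest uncalled differences of the cerebellum, at -1.39 ± 0.41, and differed by -0.58 ± 0.31 in the hippocampus.

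The cerebellar and hippocampal contrasts share no array, but both tissues may come from the same mice, so they are not independent repeats. Across the 109 probes tested in both tissues the 2 differences had a Pearson correlation of 0.810, and 66 had the same sign. Over all 25105 such probes the correlation was 0.262, with 12210 of the same sign. For the 95 probes of the stretch called in neither tissue it was 0.406, with 52 of the same sign. These are descriptions across probes, which share slides, in part genes and possibly mice, and are not independent. Calls in both tissues and in the same direction were made for 8 of the 109 (background 0.331%), and over all probes none was called in opposite directions.

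A call in 1 tissue alone does not show that the tissues differed. The difference between the genotype effects was therefore fitted over the 12 arrays, without a term for the mouse. None of the 109 probes was called (background 0.0597%). By limma 15 of the 109 had an unadjusted p under 0.05, as had 11.6% of all 25105 probes. For Srrt the cerebellar minus the hippocampal genotype difference was 1.32 ± 0.50, and for Zkscan1 A_52_P137710 it was 1.11 ± 0.49.

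**Figure D4:**
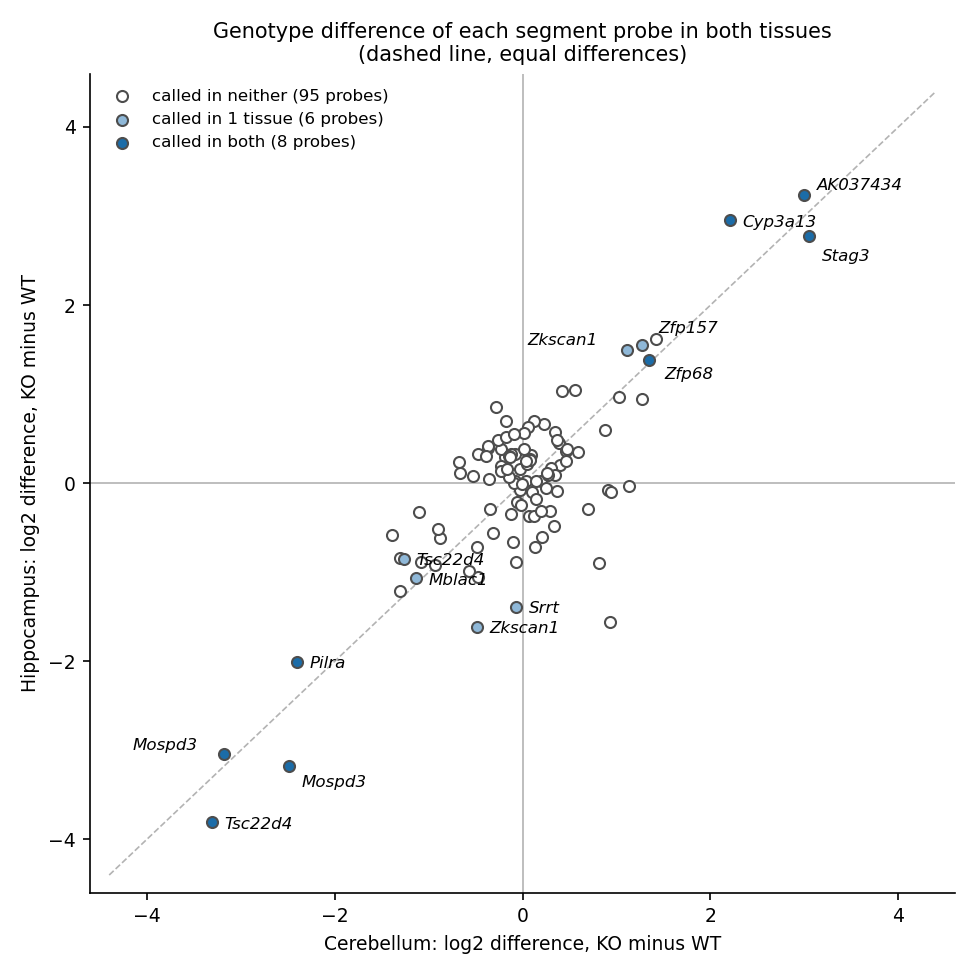
Log2 difference between KO and WT in the cerebellum (x axis) against that in the hippocampus (y axis) for the 109 probes of the stretch tested in both, shaded by whether the probe was called in neither tissue (95), in 1 (6) or in both (8). The 8 probes called in both lie in the lower left or upper right of the plot.

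The other genes were grouped by role in lists drawn up with earlier results in view. The lists were loose, and a few members named below have another role. The counts of each list at an unadjusted limma p under 0.05 stand beside 8.22% of all probes tested in the cerebellum and 21.2% in the hippocampus. Those of the rank product stand beside 4.53% and 4.3%, and the limma calls beside 0.558% and 2.12%. Of the 9 genes of synapses and neuronal secretion (such as Ache, the acetylcholinesterase, and Actl6b, a neuronal subunit of the BAF chromatin remodeller), none of 11 probes was called in the cerebellum and none of 10 in the hippocampus, with 3 and 2 at an unadjusted limma p under 0.05, 3 and 0 called by the rank product, and medians of 0.13 and -0.33. The list of transcription, replication and RNA processing had 11 genes, among them Ap4m1, which also stands in the membrane traffic list. None of its 16 probes was called in the cerebellum, with 2 at an unadjusted limma p under 0.05 and 0 by the rank product. In the hippocampus 1 of 15 was called, which was Srrt, with 6 at an unadjusted limma p under 0.05 and 1 by the rank product. The 7 genes of receptors and G protein signalling, such as Orai2, Rasa4 and Tfr2, had no call in either tissue among 7 probes, with 1 and 3 at an unadjusted limma p under 0.05 and 1 and 0 by the rank product. The 8 genes of extracellular matrix and mucins, which include Azgp1 and Pdgfa, likewise had no call among 8 probes, with 1 in each tissue at an unadjusted limma p under 0.05 and 1 in each by the rank product. For the 3 genes of ubiquitin and TRIM proteins none of 4 probes was called, with 1 and 0 at an unadjusted limma p under 0.05 and 0 by the rank product in either tissue. Among 9 genes of membrane traffic and mitochondria, 2 of 16 probes were called lower in each tissue, both of Mospd3. In the hippocampus 1 was called higher, the Zfp157 probe already described, which also stands among the zinc finger genes. At an unadjusted limma p under 0.05 this list had 4 and 8 probes, and by the rank product 3 and 4. The list of meiosis and the germ line had 6 genes. Its 3 tested probes were of Stag3, Zcwpw1 and, from outside that role, Lamtor4, and Stag3 was called in both tissues. At an unadjusted limma p under 0.05 there were 2 in each tissue, and by the rank product 2 and 1. The list of iron and blood had 3 genes, Epo, Tfr2 and, from outside that role, Ufsp1. None of its 2 tested probes was called, with 1 in each tissue at an unadjusted limma p under 0.05 and 1 and 0 by the rank product.

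Along the stretch the called probes ran from position 137738427 to 139047455. From the first to the last probe called in the cerebellum, a range of 138.04 to 139.05 Mb set by those calls, 13 probes of 10 genes were called in either tissue. Within it 9 of 46 tested probes were called in the cerebellum (background 0.558%) and 12 of 45 in the hippocampus (background 2.12%). The median size of the difference, without its sign, was 0.53 and 0.66. Over the rest of the 3.5 Mb this median was 0.27 and 0.31, a contrast from which nothing is read, because genotype calls set the range. There none of 66 probes was called in the cerebellum, as the choice of the range fixed. At an unadjusted limma p under 0.05 there were 10 (background 8.22%), and by the rank product 7 (background 4.53%). In the hippocampus 1 of 64 was called there (background 2.12%), that of Srrt. Signs were mixed even between neighbours, since Mospd3, Tsc22d4 and Pilra were lower in En2-/- mice, while AK037434 and Cyp3a13, which lie among and just beyond them, were higher.

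In the 3.5 Mb before the stretch 0 of 66 probes were called in the cerebellum (4 at an unadjusted limma p under 0.05, 2 by the rank product) and 2 of 60 in the hippocampus (16 and 0). In the 3.5 Mb after it 0 of 48 were called in the cerebellum (4 at an unadjusted limma p under 0.05, 1 by the rank product) and 0 of 42 in the hippocampus (5 and 0). Over all probes tested, 0.558% were called in the cerebellum and 2.12% in the hippocampus. At an unadjusted limma p under 0.05 the shares were 8.22% and 21.2%, and by the rank product 4.53% and 4.3%. The median size of the difference was 0.15 and 0.31 before and 0.23 and 0.26 after, beside 0.21 and 0.29 over all probes. The ends were set at round positions. Just outside the lower end, Ywhag, Ssc4d and Zp3 differed by 0.12, -0.51 and 0.05 in the cerebellum, and just inside it Dtx2 differed by -0.08 and the 2 Upk3bl probes by -0.88 and -1.39. Just inside the upper end, Gper1 differed by -0.53 and the 2 Zfand2a probes by 0.04 and 0.14, and just outside it the Uncx probes differed by -0.47 and 0.06 and Micall2 by -0.28. In the hippocampus Ywhag differed by -0.59, Dtx2 by 0.33 and the Upk3bl probes by -0.62 and -0.58 around the lower end, where Ssc4d and Zp3 were not tested. Around the upper end Gper1 differed there by 0.08, the Zfand2a probes by 0.25 and -0.18, Uncx A_52_P647576 by -0.86 and Micall2 by -0.62, and the other Uncx probe was not tested.

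The level of the genes in WT cerebellum against WT hippocampus was tested, since it played no part in the choice of the stretch. Of 108 probes tested, 23 were called (background 23.9%), with 12 higher in the cerebellum (background 12.3%) and 11 higher in the hippocampus (background 11.6%). The share of probes called was thus near that of all probes. Rasa4, a GTPase-activating protein for Ras, had the largest cerebellar excess, with levels of 11.15, 10.80 and 10.51 in WT cerebellum and 8.30, 8.08 and 8.31 in WT hippocampus (difference 2.59 ± 0.24, 6.02-fold, limma adjusted p = 0.000136). In the other direction Orai2, a subunit of store-operated calcium channels, read 11.36, 11.42 and 11.07 in WT cerebellum and 13.34, 13.41 and 13.07 in WT hippocampus (-1.99 ± 0.22, 3.98-fold, limma adjusted p = 0.000357). The tissues were well apart for both genes on all 3 slides.

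Others higher in the cerebellum were 1700123K08Rik (1.81 ± 0.30), Upk3bl A_51_P345340 (1.66 ± 0.34), ENSMUST00000151512 (1.47 ± 0.43) and Cyp3a13 (1.46 ± 0.37, limma adjusted p = 0.0229). For Cyp3a13 no fold is given, since none of the WT hippocampus arrays was well above background. Its tissue difference was 0.51 with the authors' values and 0.20 at its lowest, and it was called in 8 of 14 alternative settings. Higher in the hippocampus were both Actl6b probes (-1.58 ± 0.27 and -1.40 ± 0.34), 3110082I17Rik (-1.39 ± 0.38) and Tfr2, the second transferrin receptor (-1.31 ± 0.28). Gigyf1 A_51_P375926 had a difference of -1.82 ± 1.13 that was not called. Of the probes called by genotype, AK037434 was higher in WT hippocampus (-1.06 ± 0.28) and Tsc22d4 A_51_P215896 in WT cerebellum (1.25 ± 0.21), while Mospd3, Pilra and Zfp68 were not called between the tissues. The AK037434 difference was -0.05 with the authors' values and -0.59 with quantile normalization within each tissue, and it was called in 5 of 15 alternative settings.

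The number of tissue calls rested on single arrays and on the scaling. It was 13 without WT cerebellum array 1, 12 without array 2, 14 without WT hippocampus array 1 and 11 without array 2. Quantile normalization within each tissue moved the median difference of all probes from 0.04 to 0.34 and the calls to 24 higher and 6 lower in the cerebellum, and the authors' own values, with a median of 0.31, gave 30 and 5. None of the 23 called probes changed sign under any setting run.

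**Figure D5:**
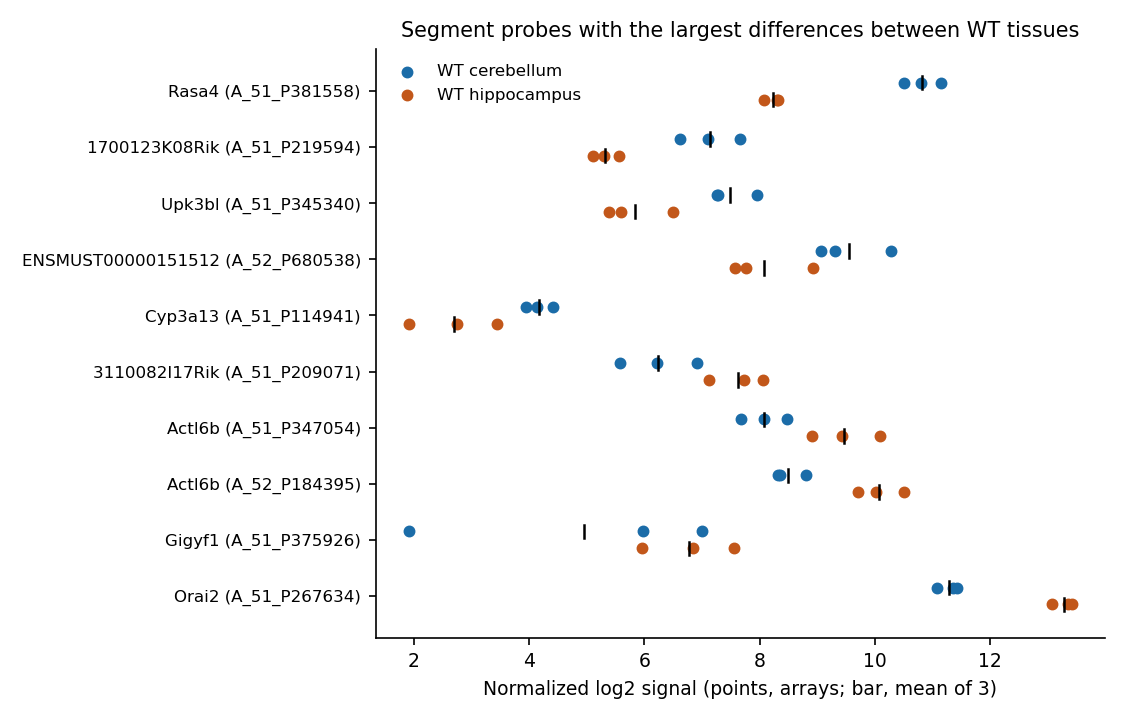
Normalized log2 signal on each WT array (points; bar, mean of 3) for the probes of the stretch with the largest differences between WT cerebellum and WT hippocampus. Rasa4 and Orai2 have the 2 tissues far apart with little spread, whereas the Gigyf1 probe has WT cerebellum arrays from 1.92 to 6.99.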

How the data were processed

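Total RNA from 3 WT and 3 En2-/- samples per tissue was labelled with Cy3 and hybridised to one-colour Agilent 4x44K arrays. The authors deposited the scanner software's spot intensity on a linear scale (Feature Extraction 10.7.3.1, probe positions in mm9), already corrected for background within the array. They also deposited a table of log2 values, described in the paper's methods as filtered and quantile normalized, which was used as an alternative. Its columns had medians of 9.50 to 9.52 for hippocampus arrays and 9.57 to 9.58 for cerebellum arrays, and genes were not centred.

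After removal of control and outlier-flagged spots, log2 intensity was quantile normalized over the 12 arrays, and spots of a probe were averaged. Probes were kept apart. Each comparison was fitted with limma 3.58.1 in R 4.3.3 and adjusted by Benjamini-Hochberg over all probes tested (values on at least 2 arrays of each group were required). The rank product was coded in Python 3.11.15, with 9 ratios per probe, 100 permutations and the study's limits on the uncorrected P, 0.01 and 0.005. Procedures were tested on simulated data.

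The members, the lists and the tests were chosen with earlier results of these data known. The named genes were the leading genes of the stretch, those with a called probe, the 10 largest non-overlapping differences per tissue, the 3 probes nearest each end on either side, genes whose probes lay over 1 apart, and the 5 largest differences between WT tissues each way. Gene names were matched to the RefSeq table by symbol (117 probes) or accession (13), and 20 were kept as in the files. Some genes of the stretch are not reported here and enter none of its counts, although the adjustment over all probes includes them.

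Replicate numbers matched slides. Same-number WT and En2-/- arrays correlated in their deviations from the group means at -0.123, 0.084 and -0.023 for cerebellum arrays and at -0.166, 0.077 and -0.157 for hippocampus arrays. The slide is given as a block because it held all 4 groups. Alternatives were other background corrections (normexp, or subtraction with a floor, offset 50), the 75th percentile or quantiles within a tissue, other filters on dim probes, 1 model over all arrays, and leaving out each array.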

Additional observations from a re-analysis of the deposited data

How the results depend on the processing

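In the cerebellum, 9 probes of the stretch were called between genotypes. This became 4 without a filter on dim probes, 5 with probes well above background on every array, 13 in 1 model over the 12 arrays and 26 by the rank product, and leaving out 1 array gave 5 to 7. In the hippocampus the 13 calls became 8 without a filter, 9 with probes well above background on every array and 8 with the replicate block, and leaving out 1 array gave 5 to 11. With the replicate block the count was 6 in the cerebellum, and 20 in place of 23 between the WT tissues. The WT tissue count was 35 with the authors' values, and leaving out 1 array gave 11 to 24. The difference of the genotype effects between tissues had 0 calls in every setting. Of 1331 values of named probes under the alternatives, 1245 moved by less than 1 SD and 86 moved more. Of the 1331, 39 values of 20 differences had the other sign, and none of these belonged to a difference called between genotypes. The cause of these changes was not tested. Of the calls, 1 of the 9 cerebellar and 4 of the 13 hippocampal had a group with no array well above background. The sizes of those calls are bounds that hold only with the scanner software's own background correction.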
